A study of Homo sapiens with 6 samples.

Results

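The genes of the respiratory chain that are encoded in the nucleus were followed in freeze-dried and in control cells of GM12873, an EBV-transformed B-lymphoblastoid cell line that serves as a renewable source of human RNA. Members were taken by symbol: the NDUFA, NDUFB, NDUFC, NDUFS and NDUFV genes of complex I, SDHA to SDHD of complex II, the UQCR genes of complex III, the COX4 to COX8 genes of complex IV and the ATP5 genes of complex V. After 2 pseudogene symbols were left out, 89 of 23284 symbols remained, of which 39 belonged to complex I, 4 to complex II, 9 to complex III, 18 to complex IV and 19 to complex V. The 3 control samples were cells that went straight into Trizol after washing in PBS, and the 3 lyophilized samples were cells that had been freeze-dried in 0.1 M trehalose in PBS and kept for 2 weeks at room temperature before the same reagent was added. The labels tie each control to 1 lyophilized sample as its pair. No allele or drug distinguishes the groups, and both come from 1 cell line, so the values describe GM12873 only. The labels do not say whether the 3 pairs were grown as separate cultures, and p-values therefore measure the spread between these samples, which may be technical.

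Oxidative phosphorylation runs on 5 multi-protein complexes of the inner mitochondrial membrane. Complexes I and II pass electrons from NADH and from succinate to ubiquinone, complex III hands them on to cytochrome c, complex IV reduces oxygen, and complex V, the ATP synthase, uses the proton gradient that results. Most subunits are made in the cytosol from short, abundant nuclear mRNAs and imported, while a few core subunits are encoded in mitochondrial DNA, whose transcripts were not analysed here. In B cells the chain is known for its part in activation and proliferation.

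A symbol rule is not the same as a list of subunits. COX4NB is an older name of EMC8, a subunit of the ER membrane complex, ATP5S and ATP5SL are older names of DMAC2L and DMAC2, which are named for complex assembly, and NDUFC2-KCTD14 and ATP5J2-PTCD1 are read-through transcripts. NDUFA4 was first described in complex I and later assigned to complex IV, and COX7A2L is known for its role in joining complexes III and IV. They were kept where the rule placed them. The subunits NDUFAB1, CYC1, ATPIF1, USMG5 and C14orf2 fall outside the rule and are described with the other genes of the pathway.

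The values were FPKM, which count fragments relative to transcript length and to the mapped reads of the sample. They do not give every sample the same total, and each lyophilized sample summed to more than its paired control. Summed FPKM ran from 468789.5 to 508464.9 over control cells and from 489827.9 to 524744 over lyophilized cells. The expression values carry no read counts, but the steps between low values placed the depth of the other samples at 1.38 to 1.90 times that of control 1, the shallowest. Of the B cell and lymphoblastoid markers, all 11 were above the filter used for testing, with summed FPKM of 5080 to 7100 in control cells and 5020 to 6990 in lyophilized cells. Markers of T cells, monocytes, erythroid cells, fibroblasts and epithelial cells, 15 genes in all, stayed below it, and no list of these reached a summed FPKM of 1 in any sample; CD3G and HBB were at 0 throughout. In RNA from whole samples, fewer cells and less RNA per cell cannot be told apart.

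Near copies of the members elsewhere in the genome touch on what an FPKM value can mean, because the authors kept uniquely mapped reads. Of the 89 members, 62 had no stretch of 75 bases, the read length, with an exact copy at another place in GRCh37, and in 12 at least 5% of the stretches had one. The shares were 47.9% for COX6A1, 45.9% for SDHC, 31.2% for SDHD, 23.8% for NDUFA9, 22.5% for UQCRH, 21.6% for NDUFV2 and 16.8% for UQCRFS1. The copied stretches of NDUFA9, on a transcript of 8356 nt, lay at 1931 places, against 1 for COX6A1 and for UQCRH. Its share is thus not that of a single near copy of the gene. The hinge protein gene UQCRH lies on chromosome 1 from 46769380 to 46782447 with 4 exons. UQCRHL, a gene of 1 exon, lies on the same chromosome from 16133657 to 16134194. Both are members, and both were listed at high FPKM. Their coding sequences were equal at 272 of 276 bases, or 98.6%, and differed by G158A, G167A, G231A and G233A, counted from the first base of the start codon, with the base of UQCRH first. The following 30 bases, from coding position 147 to 176, hold 2 of these differences, which are in capitals; they lie at chr1:46775892-46775921 on the plus strand and at chr1:16133969-16133998 on the minus strand of GRCh37, and show how little sequence separates the 2 genes.
UQCRH: gctagagctctGtgatgagcGtgtatcctc
UQCRHL: gctagagctctAtgatgagcAtgtatcctc

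Beside this near identity, UQCRHL was measured at 361, 279.6 and 292 FPKM in controls 1, 2 and 3 and at 386, 332 and 346 FPKM in their lyophilized partners. UQCRH was at 491, 363 and 388 FPKM in control cells and at 517, 451 and 434 FPKM in lyophilized cells. The ratio of UQCRHL to UQCRH stayed between 0.734 and 0.798 over the 6 samples, and because of the shared sequence the 2 values cannot be taken as independent measurements. How reads were divided between the 2 genes was not tested, so the value of UQCRHL may include reads of UQCRH. Copies were looked for in contiguous genome sequence. Stretches of UQCRHL equal to spliced UQCRH across its exon junctions were therefore not counted in the share of UQCRHL, 1.5%.

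Respiratory chain genes were among the more abundant messages of these cells. The median FPKM of the 80 members that passed the filter (group mean over 1 FPKM in either condition) was 132, against 10.3 for the 11134 genes tested, and 53 members had a mean of 100 or more. The median member was at 358 FPKM in complex IV, 201 in complex V, 114 in complex III, 106 in complex I and 56.9 in complex II. COX7C, a small subunit of complex IV, was the most abundant, at 959, 803.5 and 811.5 FPKM in control cells and 1047, 987 and 954 FPKM in lyophilized cells. In complex V the epsilon subunit gene ATP5E (mean 624 FPKM) and the catalytic beta subunit gene ATP5B (607 FPKM) led, and in complex I the accessory subunit genes NDUFA13 (358 FPKM) and NDUFA1 (312 FPKM). In complex III, UQCRH led with a mean of 441 FPKM, followed by UQCRHL with 333, a value that may include reads of UQCRH.

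**Figure D1:**
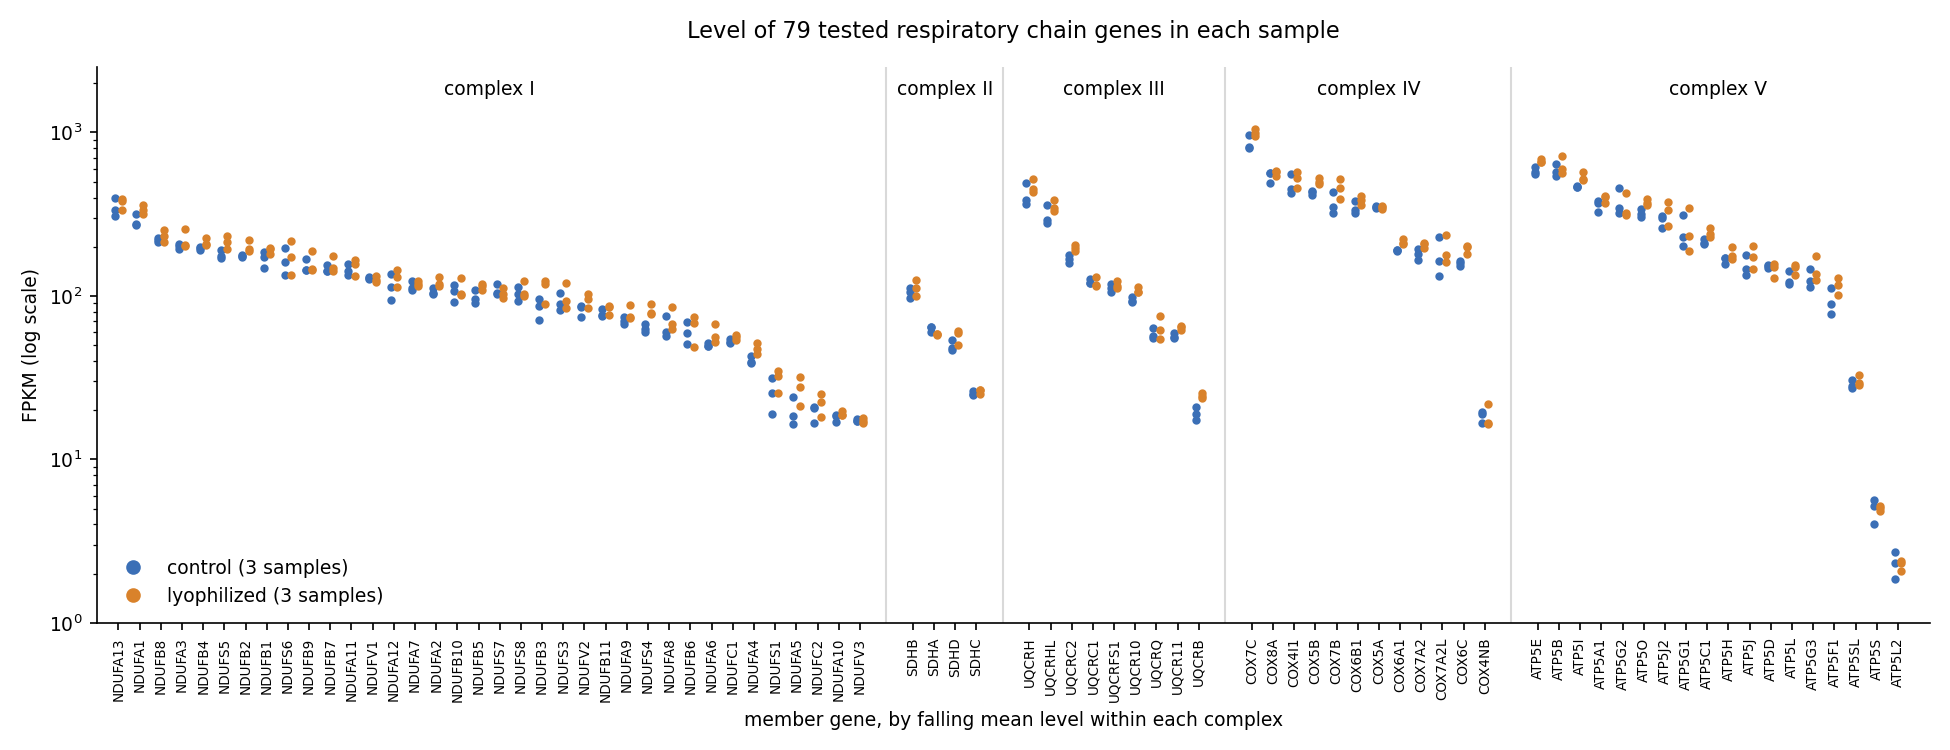
FPKM on a log scale of 79 of the 80 tested members, ordered by falling mean within each complex, with the 3 controls and the 3 lyophilized samples as points. COX7C stands at the top, at 803.5 to 1047 FPKM, and ATP5L2 at the bottom, at 1.85 to 2.70 FPKM; for most genes the points of the 2 groups lie close together or overlap.

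Among the tested members, the range within a complex was much wider than the difference between the groups. In complex I, NDUFV3, an accessory subunit of the NADH-binding module, had a mean of 17.3 FPKM, far below NDUFA13. The FPKM of SDHB, the iron-sulphur subunit of succinate dehydrogenase, was 3.95 to 4.72 times that of the membrane anchor SDHC over the 6 samples. Exact copies exist for 45.9% of the 75-base stretches of SDHC and 0.0% of those of SDHB. The part of lost reads in this ratio was not tested. UQCRB, a ubiquinone-binding protein, was the lowest of complex III with a mean of 21.8 FPKM. Of the 8385 stretches of 75 bases in its matched transcript of 8459 nt, 233 (2.8%) had an exact copy, at the records UQCRBP1 and LOC550643. On a shorter form of the transcript this share could be larger. COX4NB was the lowest tested member of complex IV with 18.4 FPKM, and ATP5L2, a 1-exon relative of the subunit g gene ATP5L, the lowest tested member of complex V with 2.28 FPKM, between 0.0155 and 0.0191 of the level of ATP5L.

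Together the 89 members held 2.88%, 3.08% and 2.98% of all FPKM in controls 1, 2 and 3 and 2.97%, 3.32% and 3.14% in their lyophilized partners. The share was higher in the lyophilized sample of each pair, by 0.166 percentage points on average, while the groups overlapped: lyophilized sample 1 lay below controls 2 and 3. Without lyophilized sample 1 the mean difference was 0.253 points and without lyophilized sample 2 it was 0.0762 points. By complex, the shares of complex IV (0.855% to 0.864% against 0.898% to 0.939%) and of complex III (0.280% to 0.294% against 0.301% to 0.307%) did not overlap between the groups. Those of complexes I, II and V did, and complex II, at 0.0449% to 0.0553%, contributed least.

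**Figure D2:**
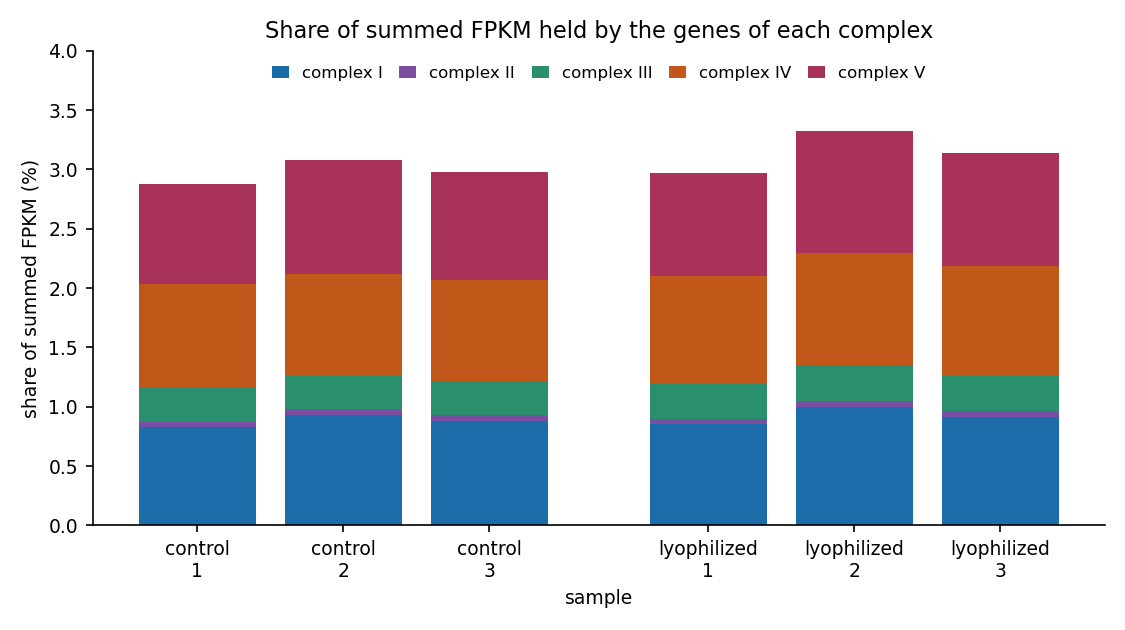
Share of the summed FPKM of each sample, in percent, held by the members of complexes I to V, stacked, with the 3 controls on the left and the 3 lyophilized samples on the right. The stack is highest in lyophilized sample 2, at 3.32%, and lowest in control 1, at 2.88%.

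The 9 members that did not pass the filter were mostly isoforms known from other tissues. The isoforms COX6A2 and COX7A1 of heart and skeletal muscle and COX7B2 were listed at 0 in every sample. COX4I2, the isoform known from lung, was listed at 0 in controls 2 and 3 and in lyophilized sample 2, and at 0.456, 0.160 and 0.199 FPKM in control 1 and lyophilized samples 1 and 3. COX6B2 and COX8C, known from testis, stayed at or below 0.0793 and 0.47 FPKM, and NDUFA4L2, a relative of NDUFA4 induced by low oxygen in other cells, at or below 0.891 FPKM. The widely expressed counterparts were abundant in every sample: COX4I1 at 427 to 569 FPKM, COX6A1 at 188 to 221.5 FPKM, COX6B1 at 323 to 409 FPKM, COX7A2 at 166 to 209 FPKM, COX7B at 322 to 516 FPKM, COX8A at 489.8 to 585 FPKM and NDUFA4 at 39.1 to 51.6 FPKM. The read-through ATP5J2-PTCD1 reached 1.37 FPKM in lyophilized sample 1 and was close to 0 elsewhere, and NDUFC2-KCTD14 lay between 0.151 and 0.485 FPKM.

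The comparison of lyophilized with control cells asks whether drying and storage changed what is measured of these messages. Without the pairing, none of the 80 tested members passed an adjusted p of 0.05 in limma with Benjamini-Hochberg adjustment over all genes, against 0.018% of all genes higher and 0.557% lower in lyophilized samples. At an unadjusted p under 0.05 there were 4 members, and 1573 of all genes (14.1%). The smallest adjusted p of a member was 0.212, for UQCRB, and log2 fold changes ran from -0.12 to 0.45. Within these small differences most members leaned one way: 70 of 80 (87.5%) had a log2 fold change above 0, against 56.3% of all genes, and the median was 0.149 against 0.039 (0.095 without lyophilized sample 2). Values above the control in all 3 pairs were found for 59 members (73.8%), against 33.4% of all genes, and values below it in all 3 for 2 members (2.5%), NDUFS7 and SDHA, against 28.8%. The groups did not overlap, with the lyophilized samples above, for 21 members (26.2%), against 9.66% of all genes; SDHA was the 1 member (1.25%) with the lyophilized samples below, against 12.6%.

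With the pair as a term in the fit, 38 members (47.5%) were called higher in lyophilized cells, against 15.9% of all genes, and 0 lower, against 14.9%. Of these, 15 were in complex I, 1 in complex II, 6 in complex III, 6 in complex IV and 10 in complex V, and all 38 were above their control in each of the 3 pairs. Their log2 fold changes were small, 0.14 to 0.45. The count rests on the pairs: it was 37 without pair 1, 38 higher and 1 lower without pair 2, and 12 without pair 3, and it was 28 when the samples were first scaled to the same median. Over the members, median pair differences on the log2 scale were 0.088, 0.208 and 0.131 in pairs 1 to 3, and 64, 74 and 67 of the 80 members lay above their control.

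**Figure D3:**
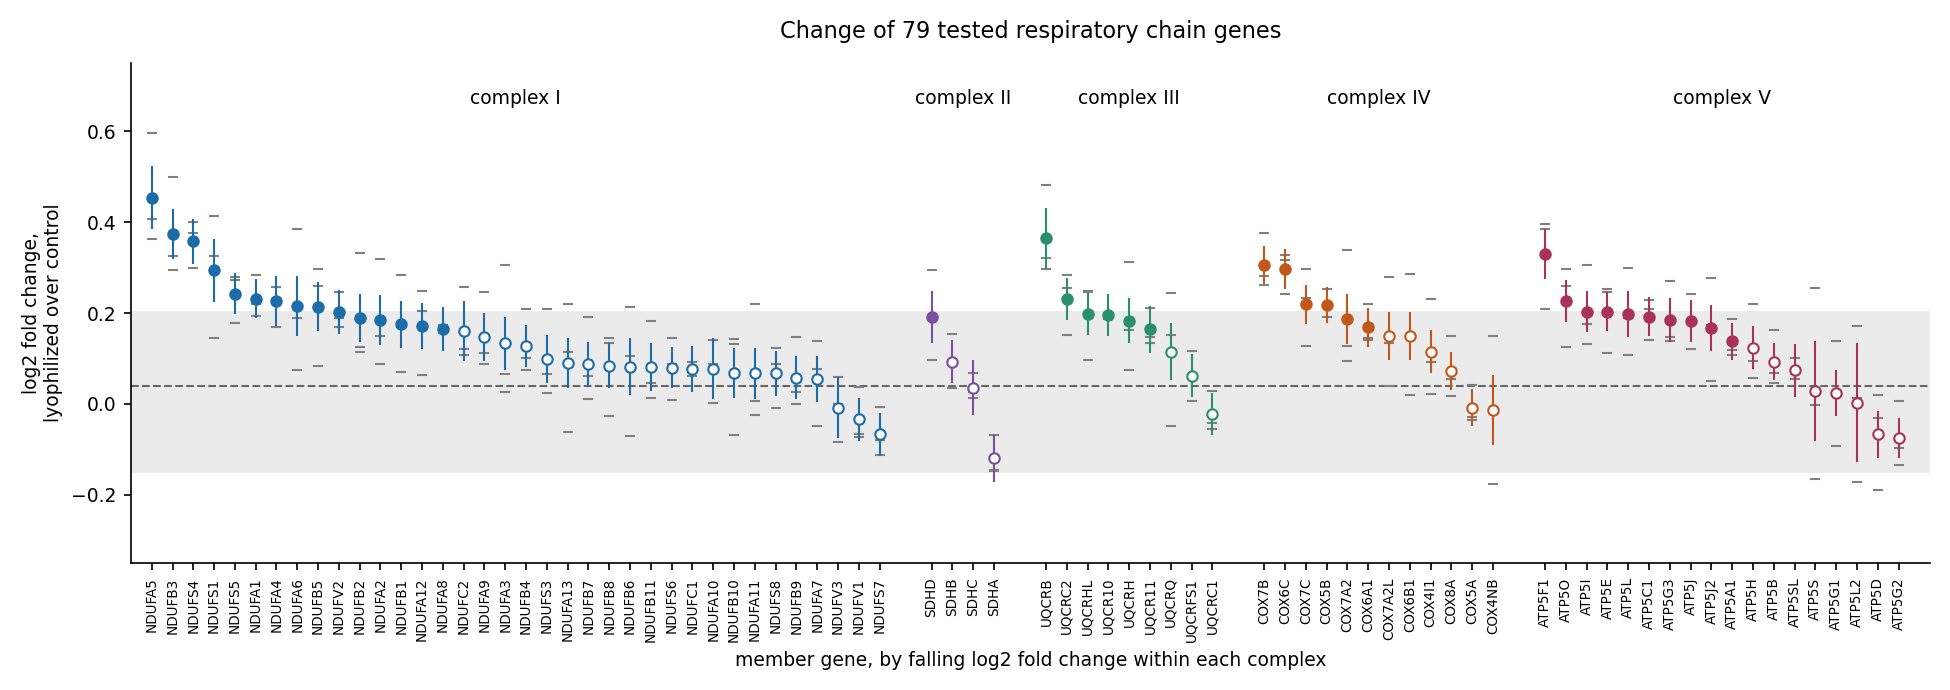
Log2 fold change of lyophilized over control for 79 of the 80 tested members, by complex, from the fit with the pair as a term (points, with standard errors); filled points have an adjusted p below 0.05, short dashes are the 3 pairs, and the band and the dashed line are the quartiles and the median (0.039) of all 11134 genes. Filled points number 38, all above 0, and SDHA is the lowest at -0.12.

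In complex I, 33 of 37 tested members (89.2%) had a log2 fold change above 0, against 56.3% of all genes. Their median was 0.127, against 0.039 for all genes. In a further fit with the pair, described below, GC content and transcript length were corrected. There the median was 0.046, against 0.027 for all genes. NDUFA5, an accessory subunit of the matrix arm, was at 16.6, 24.1 and 18.4 FPKM in control cells and 21.3, 31.9 and 27.8 FPKM in lyophilized cells. Each lyophilized sample was higher than its own control, but the groups overlapped, since pair 2 was high in both. The log2 fold change was 0.45 ± 0.19 (SE, adjusted p = 0.348 in limma), and ± 0.07 with the pair (adjusted p = 0.00231). NDUFB3, of the membrane arm, went from 71.5, 96.0 and 86.8 FPKM to 89.7, 118 and 123 FPKM, with a log2 fold change of 0.37 ± 0.06 and an adjusted p of 0.00199 with the pair, and 0.362 without it. NDUFS4, an accessory subunit whose loss is a known cause of Leigh syndrome, did not overlap between the groups, with 67.5, 62.9 and 60.4 FPKM against 89.1, 77.5 and 78.3 FPKM (log2 fold change 0.36 ± 0.05, adjusted p = 0.00168 with the pair); it lies outside the naming rule and was chosen after its values were seen.

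The core subunits, which carry the electrons, were split in their calls with the pair. NDUFS3, NDUFS8 and NDUFV1, named after their values were seen, were not called. Their log2 fold changes were 0.10, 0.07 and -0.03 (adjusted p = 0.171, 0.312 and 0.601 in limma). NDUFS1 and NDUFV2, chosen after their values were seen, were called with the pair (log2 fold change 0.29 and 0.20, adjusted p = 0.0129 and 0.0139 in limma), whereas NDUFS7, at the ubiquinone end, had the lowest fold change of the complex. NDUFS7 was at 119, 103 and 104.5 FPKM in control cells and 112, 102.6 and 96.6 FPKM in lyophilized cells, a log2 fold change of -0.07 ± 0.12 (adjusted p = 0.816). NDUFS7 passed neither without nor with the pair (adjusted p = 0.3 with the pair). With GC content and length corrected, NDUFS7 was called (log2 fold change 0.22, adjusted p = 0.00773 in limma). NDUFS1 and NDUFV2 were then not called (adjusted p = 0.281 and 0.392). NDUFA1, an X-linked membrane-arm subunit, was at 317, 274 and 271 FPKM against 362, 333 and 315 FPKM and was called with the pair (log2 fold change 0.23 ± 0.04, adjusted p = 0.00453). NDUFA13, also known as GRIM19, was at 396, 335 and 309.5 FPKM against 379, 391 and 335 FPKM and was not (0.09 ± 0.05, adjusted p = 0.221). NDUFV3 differed by -0.01 ± 0.07 (adjusted p = 0.935 with the pair).

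In complex II the 4 subunits did not move alike. SDHA, the flavoprotein that oxidises succinate, was at 60.5, 64.3 and 64.4 FPKM in control cells and 57.8, 58.1 and 58.2 FPKM in lyophilized cells, so that every lyophilized sample lay below every control. The log2 fold change was -0.12 ± 0.05, with an adjusted p of 0.0992 with the pair and 0.587 without it, so it passed in neither fit. Exact copies of 9.1% of its 75-base stretches lie at 7 places, among them SDHAP1, SDHAP2 and SDHAP3. SDHD, a membrane anchor, was at 46.8, 53.9 and 48.1 FPKM against 50.01, 61.2 and 59.0 FPKM and was called with the pair (0.19 ± 0.06, adjusted p = 0.0326). SDHB and SDHC were not, with log2 fold changes of 0.09 ± 0.05 and 0.04 ± 0.06.

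Complex III had the highest share of calls with the pair in the fit, 6 of 9 members, against 15.9% of all genes. UQCRH and UQCRHL, among these 6, are not independent measurements. With GC content and length corrected, 1 of 9 was called, against 2 of 12 in complex IV and 5 of 37 in complex I. UQCRB was at 20.9, 18.9 and 17.5 FPKM in control cells and 25.6, 23.6 and 24.5 FPKM in lyophilized cells, a log2 fold change of 0.37 ± 0.07 with groups that did not overlap (adjusted p = 0.00492 with the pair). UQCRC2, a core protein of the matrix side, was at 167, 178 and 159 FPKM against 204, 197.5 and 189.6 FPKM (0.23 ± 0.05, adjusted p = 0.00691). Its partner UQCRC1 was at 121, 128 and 120.0 FPKM against 117, 130.1 and 115.5 FPKM (-0.02 ± 0.05, adjusted p = 0.722), and the Rieske iron-sulphur protein gene UQCRFS1 at 106, 118 and 111.5 FPKM against 115, 123 and 112 FPKM (0.06 ± 0.05, adjusted p = 0.334). The 2 core proteins, which are built into the complex in equal number, thus differed in whether they were called in this fit. With a GC correction both were called (UQCRC2 0.14 and UQCRC1 0.17, adjusted p = 0.0331 and 0.0288 in limma). With GC content and length corrected neither was (0.105 and 0.103, adjusted p = 0.119 and 0.132). Whether their fold changes differ from each other was not tested. UQCRH and UQCRHL were both called with the pair, with log2 fold changes of 0.18 ± 0.05 and 0.20 ± 0.05 (adjusted p = 0.0237 and 0.0124), and they share sequence as shown above.

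In complex IV, 6 of 12 tested members were called with the pair, against 15.9% of all genes, and 2 with GC content and length corrected. COX7B, an X-linked subunit, had the largest fold change, with 322, 431 and 352 FPKM in control cells and 392, 516 and 456 FPKM in lyophilized cells (log2 fold change 0.31 ± 0.04, adjusted p = 0.00153). COX6C was at 152, 162.5 and 159 FPKM against 179.5, 202.5 and 200.1 FPKM (0.30 ± 0.04, adjusted p = 0.00219), and its groups did not overlap. COX7C was called at 0.22 ± 0.04 (adjusted p = 0.00646), and 10.3% of its 75-base stretches have an exact copy, within the records FNDC3A and KDM5B. The pair of subunits that bind close to the catalytic core of the enzyme, COX5A and COX5B, differed in their calls, though the difference between them was not tested. COX5A was at 357, 349 and 346 FPKM against 348.5, 342 and 356 FPKM (-0.01 ± 0.04, adjusted p = 0.901). COX5B was at 415, 439.5 and 435 FPKM against 481, 523.5 and 496 FPKM (0.22 ± 0.04, adjusted p = 0.00456); COX5B was chosen after its values were seen. COX4I1, COX6B1, COX8A and COX7A2L were not called (adjusted p = 0.0912, 0.0555, 0.202 and 0.0565), while COX6A1 and COX7A2 were (0.0186 and 0.0306).

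In complex V, 10 of 18 tested members were called with the pair, against 15.9% of all genes. They came from the catalytic head, the stalk and the membrane part. With GC content and length corrected, 0 of 18 were called, and the median log2 fold change was 0.021, against 0.027 for all genes. ATP5F1, subunit b of the peripheral stalk, was at 77.3, 111 and 89.5 FPKM in control cells and 102, 128 and 117 FPKM in lyophilized cells (log2 fold change 0.33 ± 0.05, adjusted p = 0.00295). ATP5O, the stalk protein OSCP, was at 338.5, 318.5 and 302.5 FPKM against 369.5, 391 and 362 FPKM without overlap (0.23 ± 0.05, adjusted p = 0.00731). ATP5E was at 614, 555 and 574 FPKM against 663, 658 and 684 FPKM, again without overlap (0.20 ± 0.04, adjusted p = 0.00879). ATP5B was not called (0.09 ± 0.04, adjusted p = 0.109), nor was ATP5D, the delta subunit of the central stalk, at 154, 153 and 147 FPKM against 156, 149.9 and 129 FPKM (-0.07 ± 0.05, adjusted p = 0.339). The 3 genes of subunit c of the rotor encode the same mature protein with different import sequences, and only ATP5G3 of them was called (0.18 ± 0.05, adjusted p = 0.0197; ATP5G1 0.02 ± 0.05 and ATP5G2 -0.07 ± 0.04). ATP5L was called (0.20 ± 0.05, adjusted p = 0.0183) and ATP5L2 was not (0.00 ± 0.13).

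Which members were called went with the base composition of their transcripts. The members are short, with a median of 876 nt against 2779 nt over all tested genes, but have nearly the same median GC content, 48.6% against 48.8%. Members called with the pair had a median GC content of 45.5% and the other 42 one of 53.6%. Below 45% GC, 17 of 22 members were called (77.3%, against 36.6% of all genes of that content), between 45% and 55% it was 21 of 41 (51.2% against 6.49%), and at 55% or more 0 of 17 (against 1.70%). Over the members, fold change and GC content had a Spearman rho of -0.65 (n = 80 genes, which share the same 6 libraries), and over all genes one of -0.75 (n = 10993). At 55% GC or more the members nevertheless lay above the other genes of like composition: their median log2 fold change was 0.067 and that of all such genes -0.185.

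Taking the GC trend of each sample off changed which members were called more than how many. With the pair and a GC correction, 39 members (48.8%) were called higher, against 9.15% of all genes, and 0 lower, against 6.74%. Only 17 members were called in both fits, 44.7% of the first list and 43.6% of the second. Among the 21 that were lost were NDUFA5, UQCRB, COX6C and ATP5F1, with 33.2% to 40.5% GC, and among the 22 that were gained were, with 57.9% to 69.5% GC, NDUFA13 (log2 fold change 0.35, adjusted p = 0.00265), COX8A (0.26, 0.00451), ATP5D (0.25, 0.00731) and NDUFS7 (0.26, 0.00554). For ATP5D and NDUFS7 the sign turned, from -0.07 before the correction. It also turned for 4 of the members described above as called with the pair, to -0.07 for ATP5E, -0.05 for SDHD, -0.09 for ATP5G3 and -0.04 for ATP5L. NDUFA4 and NDUFB5 were called with the pair too (0.227 and 0.214) and turned to -0.026 and -0.035. NDUFB5 was named after its values were seen. The transcripts matched to ATP5E and ATP5L were 1878 nt and 3151 nt long. Whether these were the forms measured was not tested. After this correction the fold change of the members followed GC content the other way (rho 0.75, n = 80; 0.04 over all genes) and fell with transcript length (rho -0.50, and -0.37 over all genes).

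With length corrected too, the members stood closer to the other genes. Their median log2 fold change was 0.037, against 0.027 for all genes, and 8 (10%) were called higher, against 5.28% of all genes, and 0 lower, against 4.49%. The 8 were NDUFA11, NDUFB3, NDUFB11, NDUFS4 and NDUFS7 in complex I, UQCR11 in complex III and COX5B and COX7B in complex IV; NDUFA11, NDUFB11, NDUFS4, UQCR11 and COX5B were named after their values were seen. NDUFA11, a membrane-arm subunit with 62.7% GC, had the largest value, 0.37 ± 0.04 (adjusted p = 0.00071 in limma). Its FPKM nevertheless hardly differed, with 156, 142 and 135 in control cells and 157, 165 and 132 in lyophilized cells. Its correction used a transcript of 2406 nt, and whether this was the form measured was not tested. NDUFS4, UQCR11, COX5B and COX7B were called in all 3 fits with the pair. UQCR11, the smallest subunit of complex III, was at 59.1, 56.3 and 55.6 FPKM against 64.9, 65.2 and 61.6 FPKM, a log2 fold change of 0.16 ± 0.05 before and 0.18 ± 0.05 after the correction for GC content and length (adjusted p = 0.0372 and 0.0342). No member of complexes II and V passed after this correction. Whether GC content, length or another property that goes with them sets the fold changes was not tested.

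**Figure D4:**
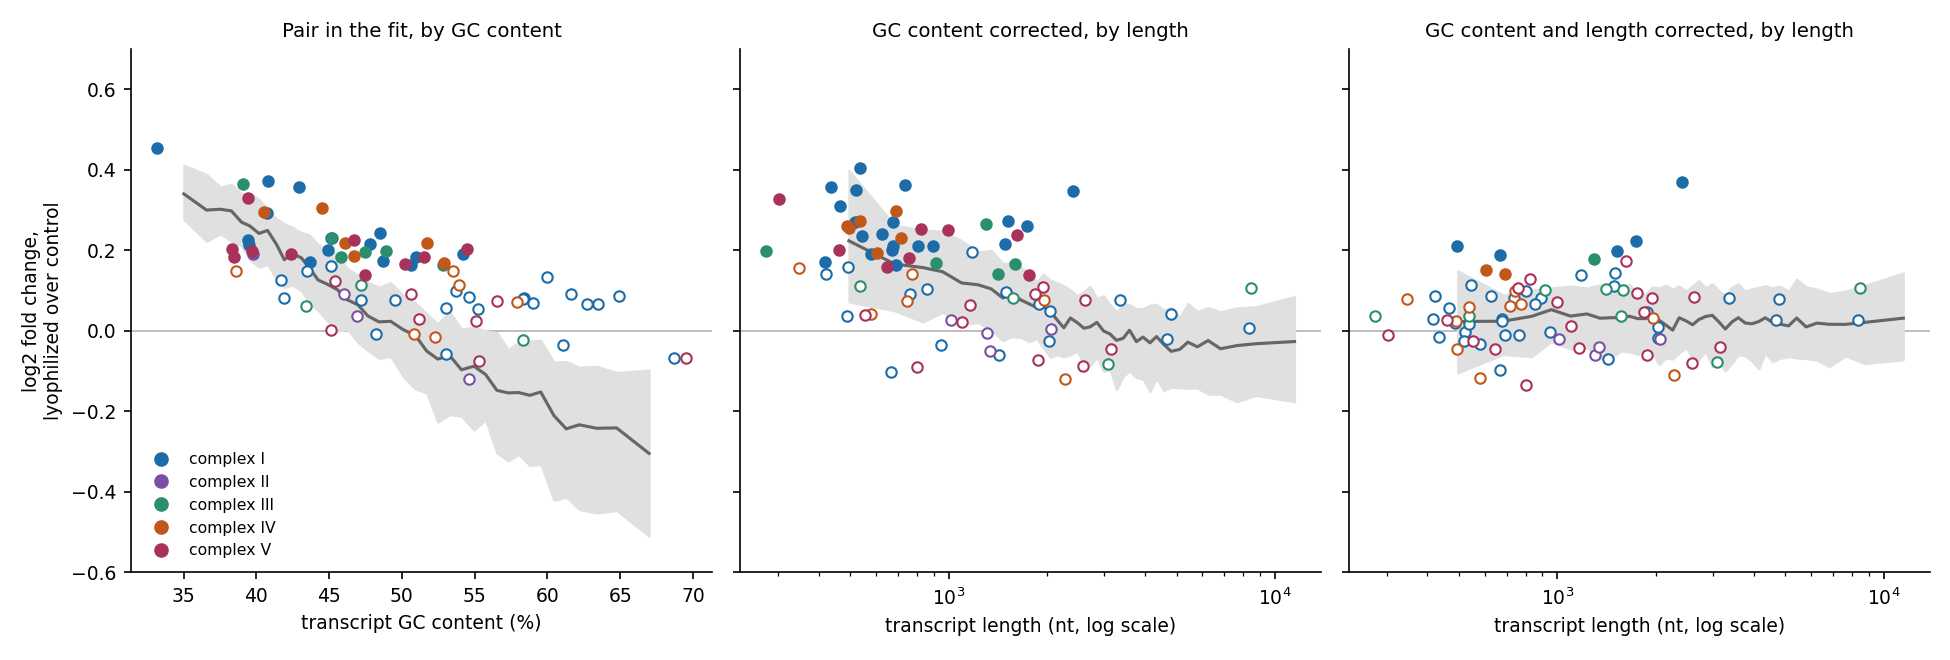
Log2 fold change of the 80 tested members (points, by complex, filled at an adjusted p below 0.05) against transcript GC content with the pair in the fit (left), against transcript length on a log scale after a GC correction (middle) and after a GC and length correction (right); line and band are the median and quartiles of all genes in 40 bins. The members fall with GC content less steeply than the other genes (left), follow the rise of short transcripts (middle) and lie around the line of all genes on the right, where 8 are filled.

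The 3 pairs differed from each other in many members. A limma test of the pair number called 39 of the 80 members (48.8%), against 45.2% of all genes, 21 of them in complex I, 2 in complex II, 3 in complex III, 4 in complex IV and 9 in complex V. The members' share was thus near that of all genes, and the count was 20 with no filter on low values, 16 with no variance trend and 4 with no condition term in the fit. Pair 1 was the lowest for 23 of the 39 and the highest for 12, and pair 2 was the highest for 27. Control 1, the shallowest library, belongs to pair 1; the part of depth in these differences was not tested.

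The subunit c gene ATP5G1 had the smallest p of the members in this test. ATP5G1 was at 202, 311.5 and 228.5 FPKM in controls 1, 2 and 3 and at 189, 343 and 232 FPKM in their lyophilized partners, so that each lyophilized sample lay nearest to its own control, and pair 2 stood 0.74 above pair 1 on the log2 scale (adjusted p = 8.22e-05). ATP5G2 ran the opposite way, at 455, 322 and 343 FPKM and at 425, 323 and 313 FPKM, with pair 2 below pair 1 (-0.45 on the log2 scale, adjusted p = 0.000282). ATP5G3 followed ATP5G1, at 113, 145 and 124 FPKM and at 125, 175 and 136 FPKM (0.43, adjusted p = 0.000974). The summed FPKM of the 3 genes lay between 681.4 and 841.2, while the share of ATP5G2 was 59.1% in control 1 and 41.3% in control 2, and 57.5% and 38.4% in the matching lyophilized samples.

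NDUFS6 and COX7A2L followed ATP5G1 in the order of p. COX7A2L was at 228, 132 and 163 FPKM in control cells and 234, 160.2 and 179 FPKM in lyophilized cells, lower in pair 2 than in pair 1 (-0.67 on the log2 scale, adjusted p = 0.000168). NDUFS6, a zinc-binding subunit of complex I, was at 134, 197 and 162 FPKM and at 134, 218 and 172.5 FPKM, higher in pair 2 (0.63, adjusted p = 0.000125). In both genes the order of the 3 pairs was the same in controls and in lyophilized samples. Over the 80 members, the deviations from the group mean of control and lyophilized sample of a pair correlated at 0.897, 0.844 and 0.579 in pairs 1 to 3, a description over genes that share the libraries.

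**Figure D5:**
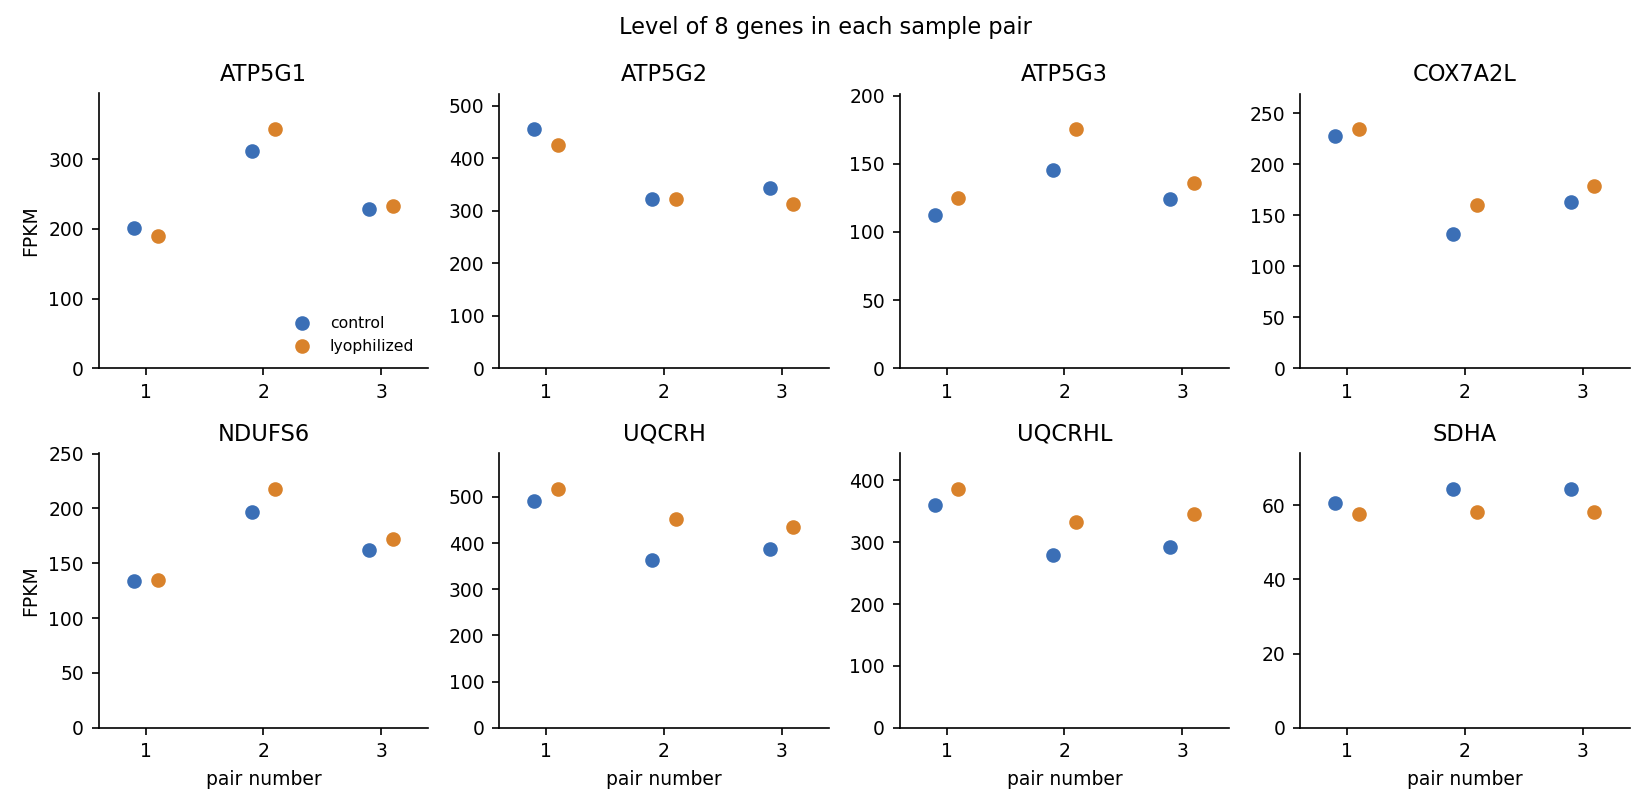
FPKM of 8 members in the 3 pairs, controls and lyophilized samples side by side, each axis starting at 0. Pair 2 is high for ATP5G1, ATP5G3 and NDUFS6 and low for ATP5G2 and COX7A2L in both groups, UQCRH and UQCRHL are both highest in pair 1, and SDHA, at 57.8 to 64.4 FPKM, varies little.

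The promoters of these genes are known to be rich in sites for NRF1, for ETS factors such as GABP and for YY1, which tie nuclear genes to mitochondrial function. Promoter sequences from RefSeq (GRCh38.p14, 250 bases before to 50 after the start site) were found for 69 of the 89 members. The motif GCGCANGCG, for NRF1, was present on either strand in 21 members (30.4%), against 8.05% of 27305 promoters and 16% of those of tested genes. CCGGAAG, for ETS factors, was in 20 members (29%, against 10.7% and 21.7%), and AAGATGGCG, for YY1, in 8 (11.6%, against 1.85% and 4.47%). Motifs can share their ends, since CCGGAAG ends and AAGATGGCG begins with the same letters, so 1 stretch may count for more than 1 of them; any of the 3 was in 39 members (56.5%, against 18.3% and 36.7%). To show where they lie, 30 bases around the motif, in capitals, follow for the most abundant named member with each, read along the gene's strand: ATP5G2 with the reverse complement of the NRF1 motif at -41 to -33 from the start site (chr12:53676105-53676134, minus strand), COX8A with the reverse complement of the ETS motif at -18 to -12 (chr11:63974591-63974620, plus strand), and UQCRC1 with the YY1 motif as written at 24 to 32 (chr3:48609604-48609633, minus strand).
ATP5G2: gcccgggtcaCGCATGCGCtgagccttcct
COX8A: cagctccagaaCTTCCGGccagcgcagcca
UQCRC1: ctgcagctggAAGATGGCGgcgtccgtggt

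The fold changes of the members did not part along these motifs. Median log2 fold changes with and without the motif were 0.156 and 0.131 for NRF1, 0.157 and 0.136 for ETS factors and 0.120 and 0.144 for YY1. Of the 64 tested members with a promoter sequence, 17 of 38 with any of the 3 motifs and 13 of 26 with none were called with the pair in the fit. A match is a description of letters and not a binding site.

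Genes that build or feed the chain were counted by lists, beside the 15.9% of all genes called higher and the 14.9% called lower with the pair, and the 5.28% and 4.49% with GC content and length corrected. In none of these lists did a gene pass without the pair. Of 46 assembly factors tested, 8 were called higher and 0 lower with the pair, a share of higher calls near that of all genes, and their median log2 fold change was 0.115, with a median length of 1436 nt and 47.7% GC. These 8 included COX17, the copper chaperone of complex IV, at 267, 188 and 208 FPKM in control cells and 282, 225 and 246 FPKM in lyophilized cells. The log2 fold change of COX17 was 0.19 ± 0.05 (adjusted p = 0.0185 in limma, and 0.565 with GC content and length corrected). TMEM126B, an assembly factor of complex I, was also among them (0.31 ± 0.06, adjusted p = 0.00559, and 0.484 with the correction). With GC content and length corrected, 2 of the 46 were called higher and 0 lower, again near the share of all genes. These 2 were ECSIT and ATPAF1 (adjusted p = 0.0137 and 0.0316), and ECSIT was not called with the pair alone (adjusted p = 0.336).

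Of the 5 subunits outside the symbol rule, 3 were called higher with the pair, against 15.9% of all genes, and 0 lower, against 14.9%. With GC content and length corrected, 2 were called higher, against 5.28% of all genes, and 0 lower, against 4.49%. C14orf2, a small protein of the ATP synthase, was at 170.0, 168 and 162 FPKM against 205, 207 and 195 FPKM (0.28 ± 0.04, adjusted p = 0.00231, and 0.0686 with GC content and length corrected), and USMG5, which binds the same enzyme, at 264, 299 and 244 FPKM against 311, 368 and 329 FPKM (0.32 ± 0.05, adjusted p = 0.00213, and 0.0103 with the correction). CYC1, the cytochrome c1 of complex III, was not called with the pair alone (0.05 ± 0.05, adjusted p = 0.459) but was with GC content and length corrected (adjusted p = 0.0351). Of 10 genes of cytochrome c and ubiquinone synthesis 2 were called higher and 0 lower with the pair, a share of higher calls near that of all genes, among them CYCS, cytochrome c itself, at 17.0, 33.9 and 25.4 FPKM against 23.1, 40.8 and 36.1 FPKM (0.40 ± 0.07, adjusted p = 0.00317).

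The tricarboxylic acid cycle, which supplies the electrons, was mixed. Of its 13 genes 5 were called higher and 1 lower with the pair, at a median log2 fold change of 0.019, and 1 higher and 1 lower with GC content and length corrected. The lower one was CS, citrate synthase, at 62.2, 61.8 and 63.9 FPKM in control cells and 50.3, 54.8 and 58.5 FPKM in lyophilized cells (-0.20 ± 0.06, adjusted p = 0.0241). Of 11 tested genes that regulate respiratory or mitochondrial transcription, 2 were called higher and 2 lower with the pair, near the shares of all genes in both directions. The lower ones were PPRC1, a coactivator related to PGC-1, at 10.4, 12.3 and 13.6 FPKM against 6.52, 7.90 and 7.92 FPKM (-0.69 ± 0.08, adjusted p = 0.00072, and 0.00987 with the correction), and POLRMT, the mitochondrial RNA polymerase (-0.45 ± 0.08, adjusted p = 0.00352, and 0.249 with the correction). NRF1 itself did not pass (0.00 ± 0.10), TFAM was called higher (0.33 ± 0.08, adjusted p = 0.0144, and 0.271 with the correction), and PPARGC1A was at or below 0.0379 FPKM in every sample.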

How the data were processed

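GM12873 RNA from 3 control and 3 lyophilized samples was sequenced after poly(A) selection (TruSeq v2, NextSeq 500, 75 bp single-end). Per the labels and the study's methods, the authors mapped reads with TopHat2 2.0.7 to hg19, kept uniquely mapped reads and deposited FPKM values made with Cufflinks, 1 value per record and sample. The Cufflinks version and the gene annotation are not given in the sources used here. Keeping only uniquely mapped reads can shift the FPKM of genes with near copies, in a direction that was not tested. The FPKM values give depth only relatively, from steps between low values. No counts per gene were used, so no counting interval was computed.

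The 24934 records were reduced to 23284 symbols (highest mean FPKM), and 1622 small RNA symbols were left out of tests. The filter, a group mean over 1 FPKM in either condition, left 11134 genes. They were fitted on log2(FPKM + 0.1), which understates the change of low genes, using limma 3.58.1 (R 4.3.3) with a variance trend; p-values were adjusted after Benjamini and Hochberg. The condition alone was the first design, and the replicate number was added as a block in a second. The labels pair the samples by number, and deviations within a pair correlated at 0.716, 0.603 and 0.476 over all genes, so the blocked values stand beside the others. In 2 further blocked fits a loess curve (span 0.3, degree 2) over transcript GC content, or GC content and log2 length, was taken off each sample. Transcripts came from GENCODE v44 on GRCh37 (21257 symbols matched by symbol, 1258 by locus, 769 not), using the coding transcript whose ends lie nearest to the record; 10993 tested genes have one. Coordinates on GRCh37 add 1 to the start given in the files, whose starts match the annotation as 0-based at 7696 genes and as 1-based at 815. Copies of 75-base stretches were looked for genome-wide in either orientation. The fits were tested on simulated data. Tables and plots were made with pandas 2.3.3, matplotlib 3.10.9 and numpy 2.4.6 under Python 3.11.15.

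Named genes were, per complex, the 2 most and the 1 least abundant, the 2 lowest and the 2 highest in fold change, those called without the block, the 3 with the smallest p among pairs, the SDH genes and 10 isoform families. The values of 1 gene that the rule names are not reported here. The members and all lists were chosen with earlier results of these data known. Alternatives covered pseudocount 1, the filter, the scaling, the trend, the block, the corrections and each sample left out.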

Additional observations from a re-analysis of the deposited data

How the results depend on the processing

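No member passed without the replicate block under any setting tried there, so the calls rest on the pairing in the labels. With the block, 38 members were called. The count was 39 with a GC correction, 8 with GC content and length corrected, and, by settings chosen after seeing the data, 28 with samples scaled to the same median, 38 and 7 when the shortest transcript was used for the 2 corrections, and 37, 39 and 12 without pair 1, 2 and 3. The median log2 fold change of 0.149 ranged from 0.095 (without lyophilized sample 2) to 0.178 when 1 sample was left out, and became 0.067 after quantile normalization, 0.037 with GC content and length corrected and 0.045 when the latter used the shortest transcript. The difference in the members' share of FPKM, 0.166 percentage points, ranged from 0.0762 to 0.253 when 1 sample was left out. The count of members called among pairs, 39, was 20 with no filter, 16 with no variance trend and 4 with no condition term. The cause of these shifts was not tested.

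For 24 of the 39 named and tested members the sign of the log2 fold change turned under some setting, in 66 cases. Quantile normalization gave -0.056 for COX8A, -0.048 for ATP5B, -0.074 for ATP5G1, -0.003 for NDUFS6 and -0.019 for COX4I1. ATP5L2 was at -0.0005 with a pseudocount of 1 and at -0.005 with samples scaled to the same median. The replicate block with a GC correction gave NDUFS7 0.26, SDHA 0.006, SDHC -0.006, SDHD -0.049, UQCRC1 0.167, UQCRFS1 -0.082, COX4NB 0.078, COX5A 0.042, ATP5E -0.072, ATP5L2 -0.09, ATP5G2 0.064, ATP5D 0.25, COX7A2L -0.119, NDUFA4 -0.026, ATP5G3 -0.088 and ATP5L -0.044. The block with GC content and length corrected gave NDUFA13 -0.003, NDUFV3 0.028, NDUFS7 0.223, SDHB -0.021, SDHC -0.059, SDHD -0.039, UQCRC1 0.103, UQCRFS1 -0.077, COX8A -0.044, COX4NB 0.032, ATP5E -0.059, ATP5L2 -0.135, ATP5D 0.071, ATP5G1 -0.044, NDUFS6 -0.025, COX7A2L -0.11, NDUFA4 -0.018, ATP5G3 -0.08 and ATP5L -0.04. Leaving out 1 sample gave ranges of -0.034 to 0.011 for NDUFV3, -0.076 to 0.009 for UQCRC1, -0.142 to 0.054 for COX4NB, -0.023 to 0.007 for COX5A, -0.012 to 0.163 for ATP5B, -0.135 to 0.125 for ATP5L2, -0.215 to 0.076 for ATP5G2, -0.121 to 0.013 for ATP5D, -0.213 to 0.216 for ATP5G1, -0.092 to 0.256 for NDUFS6 and -0.031 to 0.363 for COX7A2L. The FPKM values give depth only relatively, and 3 samples a group limit what can be told from these small differences.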

Other observations

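Both pseudogene symbols that the rule left out were measured at levels like those of their parent genes. ATP5EP2, an intronless copy of ATP5E on chromosome 13, was at 482, 443 and 467 FPKM in the controls and 547, 534 and 536 FPKM after lyophilization (log2 fold change 0.22, adjusted p = 0.406 in limma, and 0.00512 with the pair), beside 555 to 684 FPKM for ATP5E. UQCRBP1, a copy of UQCRB, was at 22.8, 21.1 and 22.7 FPKM and at 31.5, 27.0 and 28.2 FPKM (0.38, adjusted p = 0.19, and 0.00334 with the pair). The coding sequences of ATP5E and ATP5EP2 were equal at 150 of 156 bases (96.2%). The following 30 bases, at chr20:57605390-57605419 (minus strand) and chr13:28519494-28519523 (plus strand) of GRCh37, hold 5 of the 6 differences, in capitals.
ATP5E: caaatgcTGaGaagacttctggcaGcaAcg
ATP5EP2: caaatgcCAaAaagacttctggcaAcaGcg

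These 2 records are not independent of their parents, and how reads were divided between them was not tested.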
